A study of Mus musculus with 12 samples.

Results

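Chemokine receptors were described in kidneys of 6-month-old mice, on 12 arrays with 1 array per mouse. The genes were 9 of 19936 with a probe set of a single symbol, and each had 1 such probe set. They comprised 6 signalling receptors (Ccr1, Ccr2, Ccr7, Cx3cr1, Cxcr4 and Cxcr6) and 3 atypical receptors (Ackr1, Ackr3 and Ackr4), listed by name. The 4 groups of 3 mice crossed diabetes with the D6 genotype, D6 being the protein of the atypical receptor gene Ackr2.

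OVE-D6 mice were diabetic and homozygous for the D6 deletion (D6-/-), OVE mice were diabetic with intact D6 (D6+/+), D6 mice were D6-/- without diabetes, and FVB mice were D6+/+ without diabetes. All 4 groups were on the FVB background, fed standard chow, and the labels name no drug. Diabetes came from the OVE26 line, a transgenic model in which calmodulin is overexpressed in pancreatic beta cells under an insulin promoter. Per the labels, the deletion came from C57BL/6 mice bred to FVB for at least 10 generations, so DNA around Ackr2 can still differ between knockouts and wild types. No label says whether littermates were used.

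Chemokine receptors are proteins that span the cell membrane and steer leukocytes along gradients of chemokines. Signalling members couple to inhibitory G proteins. Atypical members bind chemokines without that coupling, and instead take them up, carry them across cells or hold them. In kidney, most signalling receptors are known from leukocytes, while Ackr3 and Cxcr4 are also found on cells of the nephron and its vessels.

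Signal is given on the log2 scale of the deposited probe-set values. The background level used here was 5.93. It is the 95th percentile of the mean signal of 1027 genes for odorant receptors, most of which are not known from kidney. Ccr7, Cx3cr1, Cxcr4 and Ackr3 lay above it on all 12 arrays, Ccr2 on 5, Ackr4 on 2, and Ccr1, Cxcr6 and Ackr1 on none. The last 3 genes also failed the filter on low values (above the array's 25th percentile on at least 3 arrays), so 6 of the 9 genes were among the 16480 tested. Ccr2 passed that filter on 9 arrays, the exceptions being the 3 OVE-D6 arrays.

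In the whole table OVE replicate 3 stood apart from its group. On the first principal component, with 35.9% of the variance, it lay at 6.95, against 27.0 and 29.4 for the other OVE arrays and -15.1 to 5.17 for the 9 arrays of the other groups. The tests of Ccr2, Cx3cr1, Cxcr4 and Ackr3 that rest on OVE, and the counts of the gene lists, are therefore given with and without it. Without it, the number of all genes that passed the limma tests rose from 1200 to 1896 in OVE against FVB. In OVE-D6 against OVE that number rose from 38 to 661. Passes and counts without OVE replicate 3 are to be read beside these. Among the OVE-D6 arrays, replicate 3 had a mean level of 8.48 for the 3 adrenal markers Cyp11b1, Cyp11b2 and Star, against 5.70 to 6.04 on the 11 other arrays. The fat markers Adipoq, Plin1 and Retn had their highest mean levels on FVB replicate 2 (7.69) and OVE-D6 replicate 1 (7.64). The remaining arrays lay between 5.63 and 7.41 for them. The part of fat or adrenal tissue in the receptor values was not tested. Ackr2 itself lay between 6.74 and 7.04 on all arrays and its D6 mean differed from its FVB mean by -0.10 ± 0.08 (SE, n = 3 each). Its probe set does not separate the genotypes, and whether it lies in the deleted part was not tested. The defining kidney markers Umod, Slc12a1, Slc34a1, Lrp2, Aqp2 and Slc12a3 lay between 9.78 and 13.9 on every array.

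**Figure D1:**
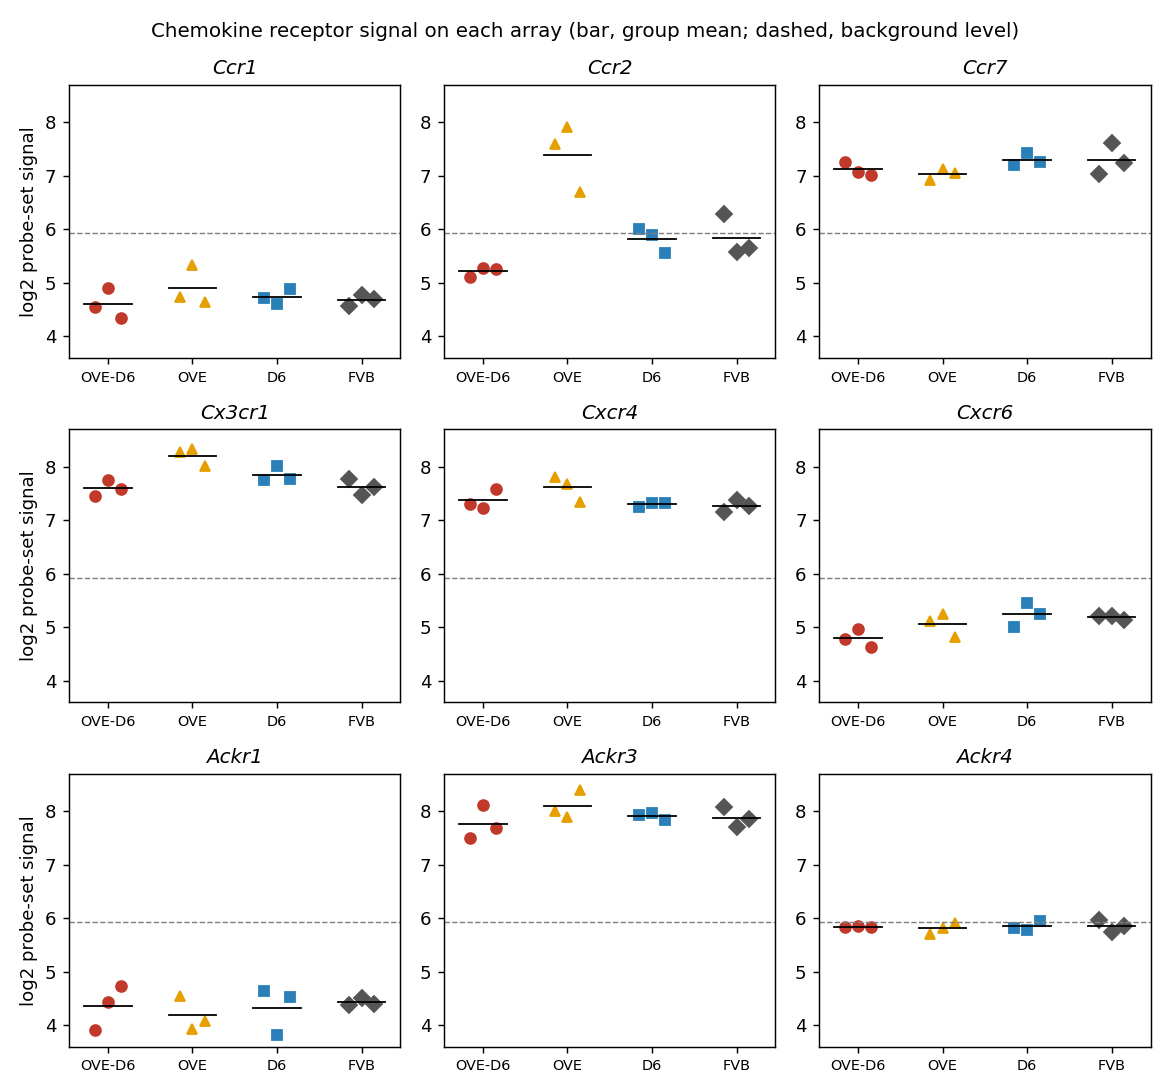
Log2 probe-set signal (vertical axis) of the 9 receptors on each array, with groups along the horizontal axis, 3 points per group, a black bar at the group mean and a dashed line at the background level of 5.93. Ccr2 is above the line on all 3 OVE arrays and below it on all 3 OVE-D6 arrays, while Ccr1, Cxcr6 and Ackr1 lie below the line throughout.

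Ccr2, the receptor through which inflammatory monocytes follow Ccl2, had the widest range of the 9 genes, 2.80 over the 12 arrays. It measured 5.11, 5.28 and 5.26 on the OVE-D6 arrays, 7.59, 7.91 and 6.69 on the OVE arrays, 6.01, 5.90 and 5.57 on the D6 arrays and 6.29, 5.57 and 5.65 on the FVB arrays. Every OVE value was above every value of the other groups. Of the 9 values of the other groups, 2 exceeded the background level, 1 in D6 and 1 in FVB, so the order among those groups says little about the transcript. The order of the means was OVE at 7.40 ± 0.63, FVB at 5.84 ± 0.39, D6 at 5.83 ± 0.23 and OVE-D6 at 5.21 ± 0.09 (SD, n = 3 each), and the neighbours FVB and D6 did not differ beyond their spread.

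With intact D6, Ccr2 rose in diabetes. The difference of OVE from FVB was 1.56 ± 0.26 (SE, n = 3 per group; limma adjusted p = 0.00674), a 2.95-fold change. Without OVE replicate 3 it was 1.91 ± 0.20 (adjusted p = 0.000145). Only 1 FVB array exceeded the background level, and with the other FVB arrays set to that level the fold was 2.55. RNA came from kidney tissue in bulk, so a change in the number of cells of a type and a change in RNA per cell cannot be told apart.

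Ccr2 fell in diabetic knockouts relative to diabetic wild types. The difference of OVE-D6 from OVE was -2.18 ± 0.26 (limma adjusted p = 0.00879), and -2.54 ± 0.20 without OVE replicate 3 (adjusted p = 7.04e-05). Since all 3 OVE-D6 arrays were under background, the size is given as a bound on the means, 2.78-fold (7.40 in OVE against the background level). This bound leaves out the spread of the OVE arrays, which ran from 6.69 to 7.91. The comparisons of OVE with FVB and of OVE-D6 with OVE share the OVE arrays, so their opposite signs are not independent of each other. The call also ended when only these 2 groups were fitted (adjusted p = 0.141), and without OVE-D6 replicate 1 or 2 (adjusted p = 0.0842 and 0.0600). Without OVE-D6 replicate 3, the array with the adrenal markers, the difference was -2.21 ± 0.31 (adjusted p = 0.0240).

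Between the knockout groups, Ccr2 differed by -0.61 ± 0.26 (OVE-D6 minus D6, limma adjusted p = 0.465), which did not pass. The 3 OVE-D6 values lay below the 3 D6 values, as did those of 8.68% of all tested genes. All of these values but 1 D6 value were under background, so no fold is given. Without diabetes, D6 differed from FVB by -0.01 ± 0.26, with a 95% interval from -0.58 to 0.56, and the groups overlapped. Only 1 array of each of these groups exceeded background, so the interval bounds the probe set's change and not that of the transcript.

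Ccr1, which shares ligands such as Ccl3, Ccl5 and Ccl9 with other inflammatory receptors and is found on monocytes and neutrophils, stayed between 4.34 and 5.33 on all arrays. Its highest value was on OVE replicate 2, as for Ccr2 and Cx3cr1. The group means were 4.60 in OVE-D6, 4.90 in OVE, 4.73 in D6 and 4.68 in FVB, all under background. Any difference in Ccr1 was not detectable at this signal.

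Cx3cr1 is the receptor for the membrane-bound chemokine Cx3cl1, and in kidney it marks resident macrophages and dendritic cells. It measured 7.46, 7.76 and 7.59 on the OVE-D6 arrays, 8.28, 8.34 and 8.01 on the OVE arrays, 7.76, 8.02 and 7.78 on the D6 arrays and 7.77, 7.47 and 7.63 on the FVB arrays. OVE values were above all OVE-D6 and FVB values, and the highest D6 value lay just above the lowest OVE value. The order of the means was OVE at 8.21 ± 0.18, D6 at 7.86 ± 0.15, FVB at 7.62 ± 0.15 and OVE-D6 at 7.61 ± 0.15 (SD, n = 3 each), of which FVB and OVE-D6 did not differ beyond their spread.

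Cx3cr1 rose in OVE relative to FVB, by 0.58 ± 0.12 on the log2 scale (limma adjusted p = 0.0142). The call was lost without FVB replicate 2 (adjusted p = 0.0579) or OVE replicate 2 (adjusted p = 0.0633), and without OVE replicate 3 the difference was 0.69 ± 0.12 (adjusted p = 0.00363). OVE-D6 differed from OVE by -0.60 ± 0.12 and did not pass (limma adjusted p = 0.0683), with a 95% interval from -0.86 to -0.35. It passed without OVE replicate 3, at -0.70 ± 0.12 (adjusted p = 0.00591). That was the only pass in 12 fits with 1 array left out, where the limma adjusted p reached 0.277. D6 differed from FVB by 0.23 ± 0.12 (95% interval -0.02 to 0.49) and OVE-D6 from D6 by -0.25 ± 0.12 (95% interval -0.51 to 0.01), and neither passed.

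Ccr2 and Cx3cr1 were the 2 receptors with a call in any comparison, so the sequences before their transcript starts are shown with those of the Cxcl12 receptor pair described next. They are the C57BL/6J reference of RefSeq, build GRCm38.p6, not FVB sequence, and 8 of the 9 genes matched the promoter table. The first pair shows 120 bases up to the start, and the capitals mark the longest word that both 250-base windows hold on the same strand, CAGGAAAC.
Ccr2, chr9:124102063-124102182, plus strand: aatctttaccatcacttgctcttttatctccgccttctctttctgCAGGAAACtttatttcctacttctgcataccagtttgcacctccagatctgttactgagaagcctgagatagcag
Cx3cr1, chr9:120068297-120068416, minus strand: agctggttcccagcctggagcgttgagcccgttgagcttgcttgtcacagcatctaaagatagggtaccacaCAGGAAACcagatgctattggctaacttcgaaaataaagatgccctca
The word begins 75 bases before the start of Ccr2 and 48 before that of Cx3cr1, and 1.94% of all 32851 windows of this length hold it on either strand. It was picked for being shared, so this percentage does not say how unusual such a shared word is. How long a word unrelated windows share was not tested. The start used for Ccr2 lies inside the gene's span in the RefSeq table. Searched on both strands, these 2 windows held no match to TATAAA, to the ETS core AGGAAG or to the C/EBP letters TTGCNNAA, which 12.4%, 29.5% and 9.56% of windows hold.
For Cxcr4 and Ackr3 the last 60 bases are shown, with TATAAA or its reverse complement in capitals. Matches on the 2 strands overlap in Cxcr4.
Cxcr4, chr1:128592300-128592359, minus strand: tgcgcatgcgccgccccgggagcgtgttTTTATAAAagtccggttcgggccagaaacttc
Ackr3, chr1:90203920-90203979, plus strand: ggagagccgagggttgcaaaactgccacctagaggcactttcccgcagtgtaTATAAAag

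Cxcr4, the signalling receptor for Cxcl12, holds progenitors and leukocytes in tissues and is also present on tubule and glomerular cells. It measured 7.31, 7.23 and 7.59 on the OVE-D6 arrays, 7.81, 7.69 and 7.35 on the OVE arrays, 7.25, 7.32 and 7.33 on the D6 arrays and 7.15, 7.37 and 7.26 on the FVB arrays. OVE replicates 1 and 2 were above every other array, and OVE replicate 3 was below the highest FVB and OVE-D6 values, so the groups overlapped. The difference of OVE from FVB was 0.35 ± 0.12 (SE, n = 3 per group) and did not pass (limma adjusted p = 0.0968). It was 0.49 ± 0.11 without OVE replicate 3, where it passed (adjusted p = 0.0150). That was the only pass in 12 fits with 1 array left out, where the limma adjusted p reached 0.281. OVE-D6 differed from OVE by -0.24 ± 0.12 (95% interval -0.50 to 0.03, limma adjusted p = 0.393), and by -0.37 ± 0.11 without OVE replicate 3 (adjusted p = 0.0884). The ligand Cxcl12 differed by 0.19 ± 0.10 (OVE-D6 minus OVE) and by -0.09 ± 0.10 (OVE minus FVB), and neither passed.

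Ackr3, the atypical receptor that removes Cxcl12 and Cxcl11, had overlapping groups in all 4 comparisons. It measured 7.51, 8.12 and 7.68 on the OVE-D6 arrays, 8.003, 7.90 and 8.39 on the OVE arrays, 7.93, 7.97 and 7.84 on the D6 arrays and 8.08, 7.70 and 7.86 on the FVB arrays. Its highest value was on OVE replicate 3, the array that was lowest of its group for Ccr2, Cx3cr1 and Cxcr4. OVE differed from FVB by 0.22 ± 0.16 (95% interval -0.13 to 0.56), and OVE-D6 from OVE by -0.33 ± 0.16 (95% interval -0.67 to 0.02), with limma adjusted p = 0.439 and 0.368. Without OVE replicate 3 these were 0.07 ± 0.16 and -0.18 ± 0.16. Cxcl11 rose in OVE over FVB by 0.79 ± 0.16 (adjusted p = 0.0146), although its FVB mean of 5.77 lay under background, and by 0.82 ± 0.19 without OVE replicate 3.

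Ccr7 guides mature dendritic cells and T cells towards Ccl19 and Ccl21 in lymphoid tissue. It measured 7.26, 7.08 and 7.03 on the OVE-D6 arrays, 6.92, 7.12 and 7.05 on the OVE arrays, 7.20, 7.43 and 7.27 on the D6 arrays and 7.04, 7.62 and 7.23 on the FVB arrays. All groups overlapped with at least 1 other, and the highest array was FVB replicate 2. OVE differed from FVB by -0.27 ± 0.13 (SE, n = 3 per group; 95% interval -0.55 to 0.02, limma adjusted p = 0.234). Its groups did overlap there, and the difference did not pass, with -0.28 ± 0.15 without OVE replicate 3 and -0.11 ± 0.11 without FVB replicate 2. OVE-D6 differed from OVE by 0.09 ± 0.13 (adjusted p = 0.787). Its ligand gene Ccl19 differed by 0.59 ± 0.30 (OVE minus FVB) without passing, although it passed without OVE replicate 3 (0.98 ± 0.22, adjusted p = 0.0165), and Ccl21a was not analysed here, since its probe sets carry several symbols.

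Cxcr6, which T and NK cells use to follow Cxcl16, stayed between 4.64 and 5.46, all under background. Its means were 4.80 in OVE-D6, 5.07 in OVE, 5.24 in D6 and 5.19 in FVB. Its 3 OVE-D6 values lay below its 3 D6 values, as did those of 8.68% of the tested genes, which leave out Cxcr6. Fitted without the filter, OVE-D6 differed from D6 by -0.44 ± 0.13 and did not pass (limma adjusted p = 0.265). At this signal no difference was detectable. Cxcl16 itself rose 1.80-fold in OVE over FVB (log2 0.85 ± 0.13, limma adjusted p = 0.00527) and differed by -0.39 ± 0.13 between OVE-D6 and OVE (adjusted p = 0.215). The second difference passed without OVE replicate 3 (-0.56 ± 0.11, adjusted p = 0.0128).

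Ackr4, which scavenges Ccl19, Ccl21 and Ccl25, was the steadiest of the 9 genes, with a range of 0.26 from 5.71 to 5.97. Its group means were 5.85 in OVE-D6, 5.82 in OVE, 5.85 in D6 and 5.86 in FVB, and the 95% intervals of the 4 group differences all lay within -0.22 and 0.21. With signal at the background level, these intervals bound the probe set's change and not that of the transcript. Ackr1, the Duffy antigen that carries chemokines across venular endothelium and is found on erythroid cells in humans, lay between 3.83 and 4.74, under background and under each array's 25th percentile on all 12 arrays. The endothelial markers Pecam1, Cdh5, Kdr, Tek and Emcn had a mean level of 9.98 to 10.0 on the OVE-D6 arrays, 9.91 to 10.2 on OVE, 9.85 to 10.1 on D6 and 10.0 to 10.1 on FVB, and none of the 5 passed in any comparison. Kdr fell in OVE against FVB when OVE replicate 3 was left out (-0.49 ± 0.09, limma adjusted p = 0.00406).

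**Figure D2:**
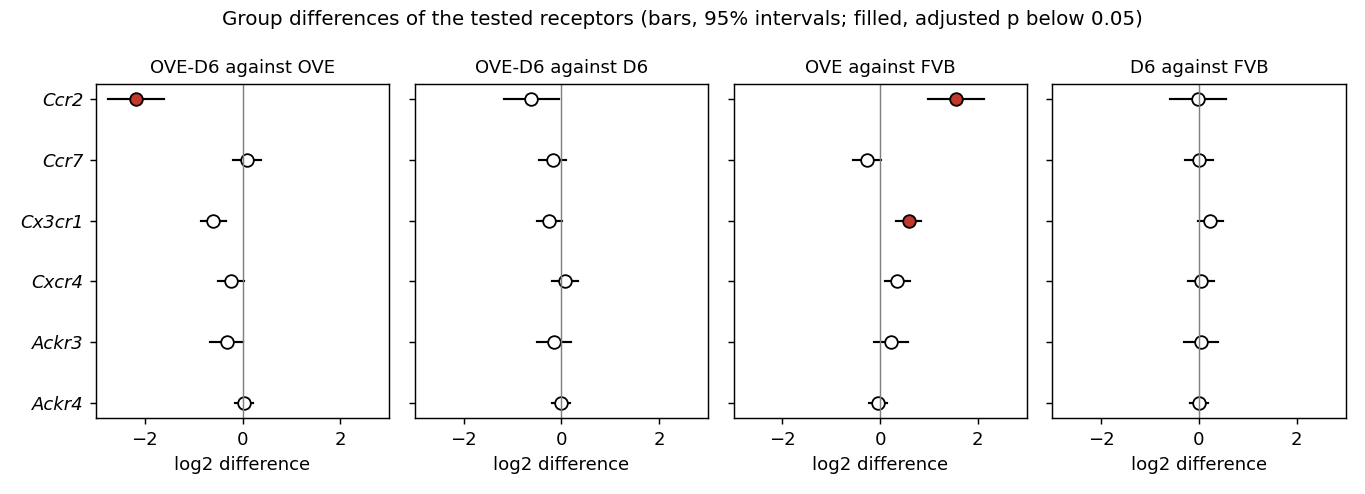
Log2 difference (horizontal axis) of the 6 tested receptors in 4 comparisons, with 95% intervals from limma as bars and filled points where the adjusted p was below 0.05. Ccr2 is filled at -2.18 in OVE-D6 against OVE and at 1.56 in OVE against FVB, Cx3cr1 is filled at 0.58 in OVE against FVB, and no receptor is filled in the other 2 panels.

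Of the 6 tested receptors, 2 rose and none fell in OVE against FVB, where 7.28% of all tested genes passed, 4.9% rising and 2.38% falling. In OVE-D6 against OVE 1 of 6 fell and none rose, where 0.231% of genes passed, 0.182% falling and 0.0485% rising. None of the 6 passed in D6 against FVB, where 0.0121% of genes passed in either direction, or in OVE-D6 against D6, where 0.285% passed. At an unadjusted p under 0.05, 0 of the 6 passed in D6 against FVB, as did 3.82% of all tested genes, and 1 of the 6 in OVE-D6 against D6, as did 9.98%. The interaction, (OVE-D6 minus D6) minus (OVE minus FVB), was -2.17 ± 0.37 for Ccr2 and -0.83 ± 0.17 for Cx3cr1 (limma adjusted p = 0.173 and 0.193), and 0% of genes passed. The Ccr2 value rests on OVE-D6, D6 and FVB arrays of which 2 of 9 exceeded background, so its size is not that of the transcript. Without OVE replicate 3 it was -2.53 ± 0.27 for Ccr2 and -0.94 ± 0.16 for Cx3cr1 (adjusted p = 0.000486 and 0.00919). Then 375 of all genes passed.

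Groups without overlap were counted apart from the tests. In OVE against FVB 2 of the 6 (Ccr2 and Cx3cr1) had every OVE value above every FVB value, as did 13.6% of tested genes, and none lay wholly below, as did 13.5%. In OVE-D6 against OVE the same 2 receptors lay wholly below and none above, against 8.24% and 9.37% of genes. In D6 against FVB none of the 6 was free of overlap, where 5.59% of genes lay above and 4.2% below. In OVE-D6 against D6 Ccr2 lay below, with values mostly under background, and none above, against 8.68% and 7.72% of genes.

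The mean level of macrophage and monocyte markers was also highest on the OVE arrays. The mean level of the 9 markers measured, of 10 listed (Adgre1, Cd68, Csf1r, Lyz2, Cd14, Itgam, Mrc1, Fcgr1, Mpeg1 and Ly6c2, the last not analysed here), was 7.31, 7.43 and 7.53 on the OVE-D6 arrays, 8.84, 8.85 and 7.88 on OVE, 7.54, 7.65 and 7.43 on D6 and 7.35, 7.08 and 7.05 on FVB. None of the 9 had a mean over all arrays under background, though Fcgr1 averaged 5.81 in FVB. OVE replicate 3 was the lowest OVE array for both receptors and for the mean level of the markers. In OVE against FVB 8 of the 9 markers rose, with a median of 1.38, led by the lysozyme gene Lyz2 (2.78 ± 0.34), the lysosomal protein gene Cd68 (1.70 ± 0.24), the macrophage surface receptor gene Adgre1 (1.51 ± 0.32), and Mpeg1 (1.44 ± 0.29). In OVE-D6 against OVE 3 fell, namely Lyz2 (-1.93 ± 0.34), Mrc1 (-1.23 ± 0.20) and the lipopolysaccharide co-receptor gene Cd14 (-1.22 ± 0.13), with a list median of -1.22 against 0.01 over all tested genes. Csf1r passed in neither comparison, at 0.16 ± 0.18 (OVE minus FVB) and 0.03 ± 0.18 (OVE-D6 minus OVE). Its mean was 9.58 in OVE and 9.60 in OVE-D6. When OVE replicate 3 was left out, 8 rose in OVE against FVB and 8 fell in OVE-D6 against OVE, with medians of 1.80 and -1.54. Csf1r again passed in neither, at 0.35 ± 0.16 and -0.17 ± 0.16. In that setting 1896 and 661 of all genes passed in either direction, against 1200 and 38 with all arrays. The part of macrophage number in the receptor differences was not tested.

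**Figure D3:**
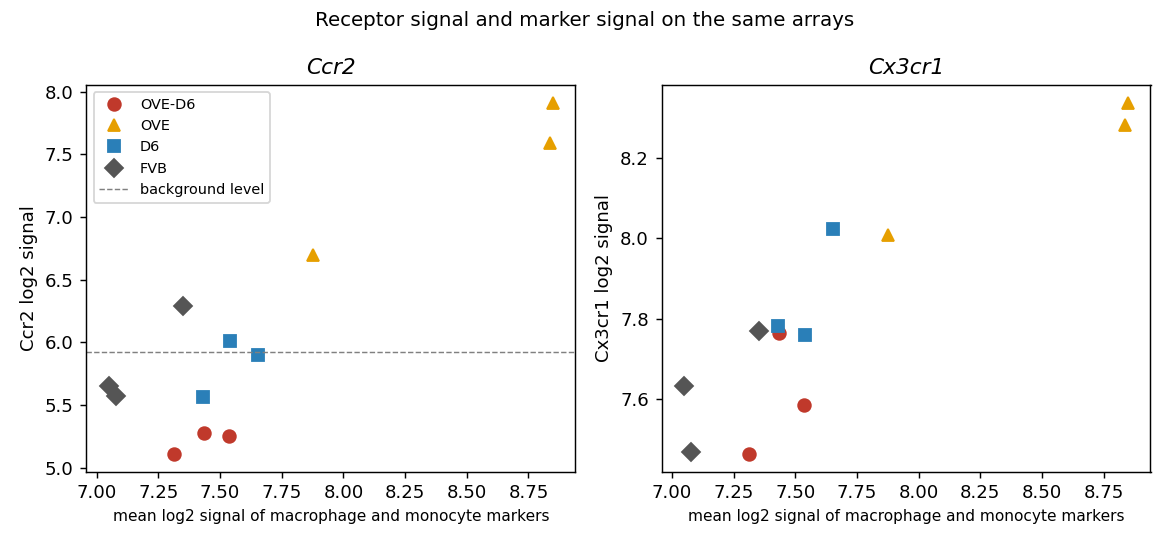
Log2 signal of Ccr2 (left) and Cx3cr1 (right) on the vertical axes against the mean log2 signal of 9 macrophage and monocyte markers on the horizontal axes, 1 point per array, with groups by colour and shape and the background level dashed for Ccr2. OVE arrays lie at the upper right, OVE replicate 3 at a marker level of 7.88, and the OVE-D6 arrays have the lowest Ccr2 values at marker levels of 7.31 to 7.53.

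Other leukocyte markers were lower in signal. For T and NK cells the mean level of the 9 measured markers lay at 5.85 to 5.97 on the OVE-D6 arrays, 5.85 to 6.35 on OVE, 5.94 to 6.00 on D6 and 5.79 to 5.86 on FVB, with 4 of 9 under background. Of the 7 tested, Cd3g rose in OVE against FVB (0.92 ± 0.21, limma adjusted p = 0.0225, with a mean of 6.24 in OVE and of 5.32, under background, in FVB). Dendritic cell markers lay at 6.13 to 6.27 on OVE-D6, 6.43 to 7.33 on OVE, 6.39 to 6.64 on D6 and 6.41 to 6.45 on FVB, 1 of 5 under background, and none passed. Of 3 tested neutrophil markers Csf3r rose in OVE against FVB (0.60 ± 0.13), S100a9 and Elane had differences of -0.14 ± 0.12 and -0.11 ± 0.10 that did not pass, and 4 of the 5 measured were under background. The neutrophil level was 5.12 to 5.19 on OVE-D6, 5.25 to 5.42 on OVE, 5.16 to 5.34 on D6 and 5.23 to 5.30 on FVB. Of 2 tested B cell markers none passed. With OVE replicate 3 left out, OVE-D6 against OVE had falls in 3 of 7 T and NK, 2 of 5 dendritic, 1 of 3 neutrophil and 1 of 2 B cell markers. OVE against FVB then had rises in 4 T and NK markers and 1 neutrophil marker. Over all genes, 661 and 1896 passed in these 2 comparisons in that setting. The part of these leukocyte markers in the receptor values was not tested.

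By the root-mean-square difference of mean-centred log2 profiles over the 12 arrays, the genes most like Ccr2 were Vcam1 (0.35), Mrc1 (0.39), Mmp12 (0.40) and Cd44 (0.40), against a root-mean-square of 0.87 for Ccr2 about its own mean. Vcam1 and Cd44 encode adhesion molecules, Mrc1 the mannose receptor and Mmp12 the macrophage elastase. The genes most like Cx3cr1 were Slc15a3 (0.10), Itgal (0.12), Ptafr (0.12) and Rgs19 (0.12), against 0.27 for Cx3cr1 about its mean. Slc15a3 encodes a lysosomal peptide transporter, Itgal the alpha chain of the leukocyte integrin LFA-1, Ptafr the receptor for platelet-activating factor and Rgs19 a regulator of G protein signalling. Ccr2 exceeded background on 5 of the 12 arrays, so most of its profile is signal under background. The points share the groups and the array-wide differences described above, so this is a description.

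Position is relevant to a knockout bred from another strain. Of the 9 receptor genes, 5 (Ccr1, Ccr2, Cxcr6, Cx3cr1 and Ackr4) lie on chromosome 9 with Ackr2, 3 on chromosome 1 and Ccr7 on chromosome 11. In the gene order of GRCm38.p6, 24 tested genes lie between Cx3cr1 and Ackr2 on one side, and 27, 28 and 29 between Ackr2 and Cxcr6, Ccr1 and Ccr2 on the other, while 222 separate Ackr4 from Ackr2. Ccr2 was the last tested gene of the chromosome. Lars2 and Slc6a20b, the 2 genes called in D6 against FVB, lie between Ackr2 and these receptors, with 20 and 23 tested genes between them and Ackr2. They differed by -0.81 ± 0.09 and -1.29 ± 0.09 (limma adjusted p = 0.00436 and 6.35e-05), while Ccr2 differed by -0.01 ± 0.26 in the same comparison. The Ccr2 means there, 5.83 in D6 and 5.84 in FVB, were both under background, so its difference says little about the transcript. Whether alleles near Ackr2 bear on the Ccr2 signal of diabetic knockouts was not tested.

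**Figure D4:**
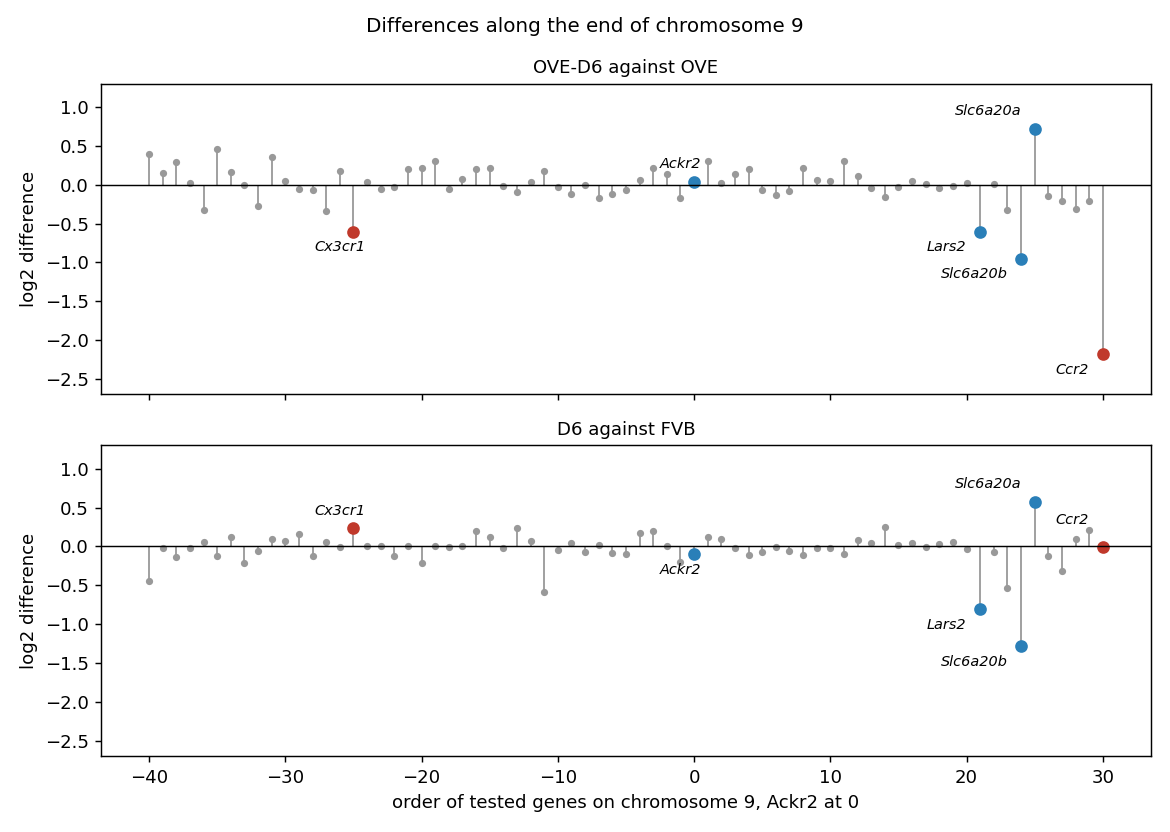
Log2 difference (vertical axes) of tested genes in their order along the end of chromosome 9 (horizontal axis, Ackr2 at 0), for OVE-D6 against OVE above and D6 against FVB below, with the receptors in red and other named genes in blue. Ccr2, at the right end, is at -2.18 in the upper panel and at -0.01 in the lower, while Slc6a20b is negative in both. In the lower panel both group means of Ccr2 are under background.

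The rest of the receptor family gave little signal. Of 14 other chemokine receptor genes measured, of 15 listed, 8 were under background on all arrays and 3 (Ackr2, Cxcr3 and Ccrl2) were above it on all. None of the 8 tested passed in any comparison, with median differences of -0.02 in OVE against FVB and 0.02 in OVE-D6 against OVE, against -0.02 and 0.01 over all tested genes. None of the 8 passed in these 2 comparisons without OVE replicate 3 either.

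Most tested ligands of the signalling receptors rose in OVE. Of 10 such genes, 7 rose in OVE against FVB, led by the monocyte attractant Ccl2 (1.91 ± 0.32, adjusted p = 0.00674, with an FVB mean of 5.88, under background), Ccl9 (1.67 ± 0.25), Ccl6 (1.49 ± 0.27) and Ccl5 (1.22 ± 0.27), and the list's median was 0.86 against -0.02 over all tested genes. In OVE-D6 against OVE 1 fell, namely Ccl9 (-1.44 ± 0.25, limma adjusted p = 0.0453), and the median was -0.54 against 0.01. Cx3cl1, the ligand of Cx3cr1, differed by 0.51 ± 0.15 in OVE against FVB (adjusted p = 0.0659) and by -0.38 ± 0.15 in OVE-D6 against OVE (adjusted p = 0.275), and neither passed. Of 9 tested ligands of the atypical receptors, a list that shares members with the first, 5 rose in OVE against FVB (Ccl2, Ccl5, Ccl7 by 0.87 ± 0.18, Cxcl11 and Cxcl1 by 0.62 ± 0.16) and none passed in OVE-D6 against OVE, with medians of 0.62 and -0.37. Without OVE replicate 3, 8 of the 10 ligands of the signalling receptors rose in OVE against FVB and 5 fell in OVE-D6 against OVE (Ccl2, Ccl5, Ccl6, Ccl9 and Cxcl16). For the atypical receptors 5 of 9 then rose, with Ccl19 in place of Cxcl1, and 2 fell. Over all genes, 1896 and 661 passed in these 2 comparisons in that setting.

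Of 18 tested genes that carry or regulate the signal of chemokine receptors inside the cell, 9 rose in OVE against FVB. Over all tested genes 4.9% rose there. The list's median was 0.37, against -0.02 over all tested genes. The 9 included leukocyte members, namely Vav1, a guanine nucleotide exchange factor of blood cells (1.13 ± 0.23, with an FVB mean of 5.91, under background), Dock2, which activates Rac in migrating leukocytes (0.98 ± 0.18), the GTPase gene Rac2 (0.86 ± 0.19) and Pik3r5, a subunit of PI3 kinase gamma (0.86 ± 0.19). In OVE-D6 against OVE 1 fell, namely Rgs16, which shortens G protein signalling (-0.71 ± 0.13, limma adjusted p = 0.0485). Over all tested genes 0.182% fell there. The list's median was -0.36, against 0.01 over all tested genes. Leaving out OVE replicate 3, 11 rose in OVE against FVB and 10 fell in OVE-D6 against OVE, where 1896 and 661 of all genes passed. None of the ligand or signalling genes passed in D6 against FVB or in OVE-D6 against D6.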

How the data were processed

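The series holds deposited log2 signals of probe sets on 12 arrays. How the authors summarised and normalised them is not given in the sources used here. Per the labels' protocols, kidney RNA of each mouse was made into sense-strand cDNA and biotin-labelled for Affymetrix arrays. Array medians lay between 6.84 and 6.93, so no further scaling was applied. Of 35556 probe sets, 21789 had 1 gene symbol, updated through the GRCm38.p6 gene table by Entrez identifier (21698) or accession (3), with 88 platform symbols kept. The probe set with the highest mean stood for a gene. The number of arrays limits the precision.

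All 12 arrays were fitted with limma 3.58.1 in R 4.3.3 (lmFit, group means, 5 contrasts, eBayes defaults), with Benjamini-Hochberg adjustment over all 16480 tested genes at 0.05. The filter was the 25th percentile on at least 3 arrays. Intervals use the moderated variance. The fit was tested on simulated data with independent noise for each gene and array. Those data held no array-wide shift such as that of OVE replicate 3, so the test cannot speak to such shifts. Alternatives changed the filter, normalisation, probe set rule, variance model, array weights, arrays in the fit and the replicate block, or left out an array. The gene lists were recounted without OVE replicate 3, an alternative chosen after seeing the data. The receptors and gene lists were chosen with earlier results of these data known. The rule named all 9 receptors, up to 4 called genes per list and comparison, ligands beside their receptors, and the 4 genes with the closest profile to each called receptor. Of the smaller marker lists, 1 of 5 lymphatic and venule genes tested (Lyve1) rose in OVE against FVB, 2 of 6 kidney segment genes (Lrp2 and Slc12a3) fell there, and none of 2 erythroid, 3 fat and 3 adrenal genes passed in any comparison. Without OVE replicate 3, Slc4a1 of the erythroid genes fell in OVE against FVB and rose in OVE-D6 against OVE, and Lyve1 fell in OVE-D6 against OVE. Motifs were chosen with the sequences in view. Figures were drawn with Python 3.11.15 and matplotlib 3.10.9.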

Additional observations from a re-analysis of the deposited data

Results flagged for a closer look

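Differences of Ccr2 and Cx3cr1 between diabetic and non-diabetic mice had opposite signs in the 2 genotypes. All 3 OVE-D6 values of Ccr2 were below the D6 mean, by 0.55 to 0.72, and all 3 OVE values were above the FVB mean, by 0.86 to 2.07. Of the OVE-D6 and D6 values 1 of 6 exceeded background, so the sign in knockouts is not one of the transcript. The difference of the 2 diabetes effects was -2.17 ± 0.37 (SE, n = 3 per group) and did not pass the limma interaction test over all genes (adjusted p = 0.173). For Cx3cr1 the OVE-D6 values were 0.09 to 0.39 below the D6 mean and the OVE values 0.38 to 0.71 above the FVB mean. Its OVE-D6 and D6 values overlapped, and their difference did not pass (-0.25 ± 0.12, 95% interval -0.51 to 0.01). The difference of its 2 diabetes effects was -0.83 ± 0.17, and it did not pass either (adjusted p = 0.193). Groups of 3 arrays were not tested for outlying arrays.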

How the results depend on the processing

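The count of receptors called in OVE against FVB, 2, became 1 with the filter at the 50th percentile, which Ccr2 does not pass, and ranged from 1 to 3 when an array was left out. In OVE-D6 against OVE, 1, it became 0 with that filter, 0 with only the 2 groups compared and 2 with array weights, which called Cx3cr1 (-0.64, adjusted p = 0.0482), and ranged from 0 to 2 when an array was left out. For the interaction it ranged from 0 to 2, the 2 being without OVE replicate 3, and it stayed 0 for the other 2 comparisons. Estimates that changed sign were all of uncalled differences. With quantile normalisation Ackr4 was 0.0036 in OVE against FVB, -0.0085 in OVE-D6 against OVE, 0.017 in D6 against FVB and -0.026 for the interaction, and Ccr2 was 0.015 in D6 against FVB. When an array was left out, Ackr4 ranged from -0.097 to 0.0159 in OVE against FVB, -0.0252 to 0.0801 in OVE-D6 against OVE, -0.0604 to 0.05295 in D6 against FVB, -0.0464 to 0.0408 in OVE-D6 against D6 and -0.0251 to 0.0883 for the interaction. In D6 against FVB Ccr2 ranged from -0.14 to 0.21, Ccr7 from -0.13 to 0.16, Cxcr4 from -0.0175 to 0.0949 and Ackr3 from -0.0523 to 0.134. Cxcr4 in OVE-D6 against D6 ranged from -0.0281 to 0.149 and Ccr7 in the interaction from -0.0702 to 0.218. The cause of these moves was not tested.

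Over all genes, 1200 calls in OVE against FVB became 440 with only those groups fitted (353 to 1896 when an array was left out), 38 in OVE-D6 against OVE became 91 with array weights and 0 with only those groups (1 to 661), 2 in D6 against FVB became 4 and 1 under these settings, and 47 in OVE-D6 against D6 became 76 with the trended robust variance and 87 with array weights (17 to 74). The interaction had 0 (0 to 375). With the replicate number as a block, the counts of receptors were unchanged (Ccr2 adjusted p = 0.0169 in OVE-D6 against OVE), and those of all genes were 7 in OVE-D6 against OVE and 29 in OVE-D6 against D6. Deviations of same-numbered arrays from their group means had correlations from -0.25 to 0.12, against -0.18 to 0.34 for arrays of different number. Of 12 arrays, 1 was closest to an array of its own number. With so few arrays per group, this check cannot decide whether same-numbered arrays form a block. Without a filter, Ccr1, Cxcr6 and Ackr1 did not pass in any comparison. Signal near background limits Ccr1, Ccr2, Cxcr6, Ackr1 and Ackr4.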
